A study of Schizosaccharomyces pombe with 4 samples.

Results

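Rad52 signal rose to 2 neighbouring peaks on fission yeast chromosome II, one over SPBPB7E8.01 and one over exg1, 2 of the 5113 protein-coding genes in the reference annotation. The array probes examined were those placed between 3480 and 3530 kb of the chromosome, 174 of the 42707 experimental probes on the array, and all 174 passed the filter on outlier spots. The peak over SPBPB7E8.01 was bounded at chrII:3492000-3498999 and held 26 probes. The peak over exg1 was bounded at chrII:3513000-3519999 and held 25. Between them lay a stretch of 14 kb with 48 probes, and 43 and 32 probes covered the left and right flanks. Both genes were chosen by their peak height in cells without Rif1, and SPBPB7E8.01 also by its lower value in cells that lack Rad3 as well. Peak heights in cells without Rif1, and the difference between strains at the peaks, are therefore given as a description without a test.

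The signal is chromatin immunoprecipitation (ChIP) of Rad52 from Schizosaccharomyces pombe hybridised together with input DNA on a 2-colour tiling array. There were 2 arrays of cdc25-22 rif1Δ cells, called rif1Δ here, and 2 of cdc25-22 rif1Δ rad3Δ cells, called rif1Δ rad3Δ. Every culture, per the labels, was held at the cdc25 block for 4 h at 36.5 °C, released at 25 °C and given 6 mM hydroxyurea, a drug that slows replication forks by depleting nucleotides. All 4 arrays thus share the rif1 deletion, the cdc25-22 allele and the drug, and no cells with Rif1, no untreated cells and no ChIP without Rad52 were measured. The labels do not say that replicates were separate cultures, so spreads and p-values describe these arrays, and the spread may be technical.

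Rad52 is the mediator of homologous recombination: it binds single-stranded DNA coated by RPA at broken DNA and at damaged or stalled replication forks. Rif1 limits the firing of late replication origins by recruiting a phosphatase, and Rad3 is the fission yeast ATR kinase, which stabilises forks and restrains late origins when nucleotides are short. The product of exg1 is a glucosidase that acts on the beta-1,6-glucan of the cell wall, and the reference annotation calls SPBPB7E8.01 an uncharacterised protein.

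Both genes are read from the + strand, and their transcripts start 20382 bp apart. The SPBPB7E8.01 transcript is annotated at chrII:3494222-3496777 and the exg1 transcript at chrII:3514604-3516567. The 250 bases before SPBPB7E8.01 are shown because the edge of the strain difference described further on fell close to them. Those before exg1 are shown for comparison. At SPBPB7E8.01 the log2 difference was -0.23 upstream and -0.57 in the 1 probe of the 5′ untranslated part, then -1.37 in the coding part. At exg1 it was -0.29 upstream and -0.22 in the 1 probe of the 5′ untranslated part, then -0.84 in the coding part. At both genes the difference was thus larger in the coding part than before it, and the edge did not fall exactly at either transcript start. Both stretches were read from the RefSeq assembly ASM294v3, + strand, 5′ to 3′, at chrII:3493972-3494221 for SPBPB7E8.01 and chrII:3514354-3514603 for exg1. Capitals mark each match, on either strand, to a set of 4 motifs.
SPBPB7E8.01: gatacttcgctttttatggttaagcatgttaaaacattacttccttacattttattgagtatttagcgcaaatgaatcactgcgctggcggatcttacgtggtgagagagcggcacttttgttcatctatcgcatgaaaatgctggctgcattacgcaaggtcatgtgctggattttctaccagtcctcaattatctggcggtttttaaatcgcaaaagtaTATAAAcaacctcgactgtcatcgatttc
exg1: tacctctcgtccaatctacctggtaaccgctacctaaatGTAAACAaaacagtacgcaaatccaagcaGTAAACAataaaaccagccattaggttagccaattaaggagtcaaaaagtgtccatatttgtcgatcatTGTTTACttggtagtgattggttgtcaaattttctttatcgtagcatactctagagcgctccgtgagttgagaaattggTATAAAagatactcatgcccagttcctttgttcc
The motifs were GTAAACA, bound by the forkhead factors of mitotic genes, ACGCGT, bound by the G1/S factor MBF, TGACGT, the core of the Atf1 stress site, and TATAAA, the TATA box. The stretch before SPBPB7E8.01 held TATAAA alone of these, 29 bases before the start. The stretch before exg1 held GTAAACA 3 times, at 211, 182 and 113 bases, and TATAAA at 34 bases before the start. No matches overlapped. Of 5112 genes searched in the same way, 14.8% had GTAAACA, 2.64% ACGCGT, 5.52% TGACGT and 44.4% TATAAA. A match is a run of letters and not a measured binding site. The stretches were 60.0% and 61.2% A+T, below the median of 68.0% over those genes.

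Values are log2 of ChIP over input, with the median of each array at 0. The 4 arrays had median ChIP signals of 390 to 1114 and median input signals of 573 to 2144, and the number of arrays limits the precision. The lowest medians, and the largest derivative log ratio spread per the file headers, 0.452 against 0.311 to 0.321, were those of rif1Δ rad3Δ replicate 2, which was also read with a ChIP protocol where the other arrays were read with a CGH protocol. Replicate 1 of both strains shared a slide. Over 12047 bins of 1 kb, profiles correlated at r = 0.629 between the rif1Δ arrays, 0.844 between the rif1Δ rad3Δ arrays and 0.293 to 0.427 across strains. Input signal over the rif1 gene was 0.867% to 3.48% of the array median on all arrays. Over rad3 it was 78.5% and 79.4% in rif1Δ, and 1.82% and 0.972% in rif1Δ rad3Δ. The labels give the input of the rif1Δ rad3Δ arrays as cdc25-22 alone, which these probes go against.

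Over the whole SPBPB7E8.01 interval the mean was 1.99 and 1.83 on the rif1Δ arrays, and 0.97 and 0.94 on the rif1Δ rad3Δ arrays. The strains did not overlap, and their means were 1.91 ± 0.11 and 0.96 ± 0.02 (SD, n = 2 each), 3.76-fold and 1.94-fold over the array median. Over the exg1 interval the mean was 1.76 and 1.31 in rif1Δ, and 1.02 and 0.86 in rif1Δ rad3Δ. Here too the strains did not overlap, with means of 1.53 ± 0.32 and 0.94 ± 0.12 (SD, n = 2 each), 2.89-fold and 1.91-fold. The log2 difference between strains was -0.95 at SPBPB7E8.01, -1.02 within the shared slide and -0.88 between the second replicates. At exg1 it was -0.59, with -0.74 within the slide and -0.45 between the second replicates, and -0.37 when rif1Δ replicate 1 was left out. The array measures an average over cells, so signal in fewer cells and less signal per cell cannot be told apart.

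**Figure D1:**
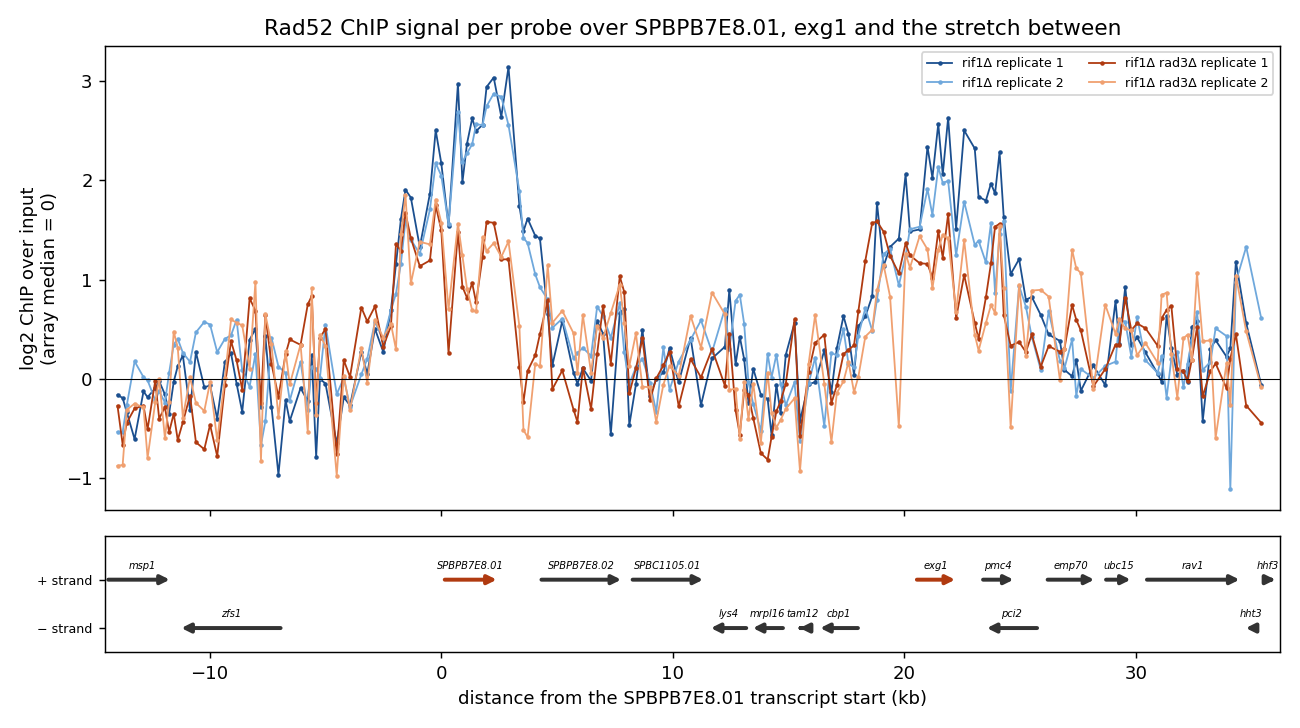
Log2 ChIP over input of each of the 174 probes on each array, against distance in kb from the SPBPB7E8.01 transcript start, with the protein-coding transcripts below as arrows (SPBPB7E8.01 and exg1 in red). Both rif1Δ lines rise over the 2 genes, and the rif1Δ rad3Δ lines rise less. Between the peaks the lines of all 4 arrays scatter about means near 0, with single probes as high as 1.57 and as low as -0.93.

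The SPBPB7E8.01 interval was the higher of the pair in rif1Δ, by 0.23 and 0.52 on the log2 scale on the 2 arrays. In rif1Δ rad3Δ the same subtraction gave -0.05 and 0.09, so the pair stood at about the same height there. The highest 1-kb bin of SPBPB7E8.01 covered the end of its transcript, chrII:3496000-3496999, and read 2.79 and 2.76 in rif1Δ, then 1.40 and 1.33 in rif1Δ rad3Δ. By strain mean it ranked 6 of 12047 bins in rif1Δ and 100 in rif1Δ rad3Δ. The highest bin of exg1, chrII:3515000-3515999 over its coding part, read 2.25 and 1.92, then 1.22 and 1.24. It ranked 19 in rif1Δ and 168 in rif1Δ rad3Δ. Single probes reached 8.83-fold and 7.33-fold over the array median at SPBPB7E8.01 in rif1Δ, against 3.36-fold and 3.61-fold in rif1Δ rad3Δ. At exg1 they reached 6.20-fold and 4.38-fold, against 3.16-fold and 2.91-fold.

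Every bin of both intervals had a strain mean above 0 in rif1Δ, and since those arrays chose the intervals nothing is read from it. The choice of exg1 rested on rif1Δ arrays, and on the rif1Δ rad3Δ arrays 7 of 7 exg1 bins were above 0 by the same test, against 24.5% of all bins. Of the SPBPB7E8.01 bins 6 of 7 were, and that gene was chosen partly for its level in that strain. The bins of each interval are neighbours in the same peak and do not count as separate members. The test also took its spread from all arrays, including the rif1Δ arrays that chose the genes. Both counts are therefore a description. Outside the peaks 9 of 35 bins were above 0 in rif1Δ rad3Δ and 4 of 35 below 0, against 24.5% and 24.4% of all bins.

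The edges of the intervals were steep in rif1Δ, except at the right of exg1, where the signal fell more gradually. At the left of SPBPB7E8.01 the mean was 0.33 in the bin just outside and 1.29 in the bin just inside, and at its right 1.05 inside and 0.35 outside. At exg1 the means were 0.47 outside and 1.24 inside on the left, then 0.82 inside and 0.40 outside on the right. In rif1Δ rad3Δ the left edge of SPBPB7E8.01 was less steep, 0.43 outside and 1.14 inside, while its right edge went from 0.48 inside to 0.23 outside. At exg1 in that strain the means were 0.57 and 0.97 across the left edge and 0.53 and 0.41 across the right.

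The difference between strains was not spread evenly over the SPBPB7E8.01 peak. Along its 7 bins, in the direction of transcription, it was -0.15, -0.37, -0.99, -1.48, -1.41, -1.66 and -0.56, so the bins before the transcript start differed least and those over the gene body and past its end differed most. By limma 5 of these 7 bins were lower in rif1Δ rad3Δ, and 3 of the 7 at exg1, where 8.16% of all bins were. The contrast includes the rif1Δ values that chose both peaks, and nothing is read from the counts. By transcript bounds, the 8 probes upstream of SPBPB7E8.01 averaged 1.61 and 1.36 in rif1Δ, and 1.29 and 1.21 in rif1Δ rad3Δ. The 10 probes in the transcript averaged 2.47 and 2.39, then 1.11 and 1.14. The 8 downstream probes averaged 1.77 and 1.61, then 0.48 and 0.43. The strains were thus close together before the gene, with a difference of -0.23, and far apart within it and after it, at -1.30 and -1.23. These bounds were set after the profile had been seen.

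**Figure D2:**
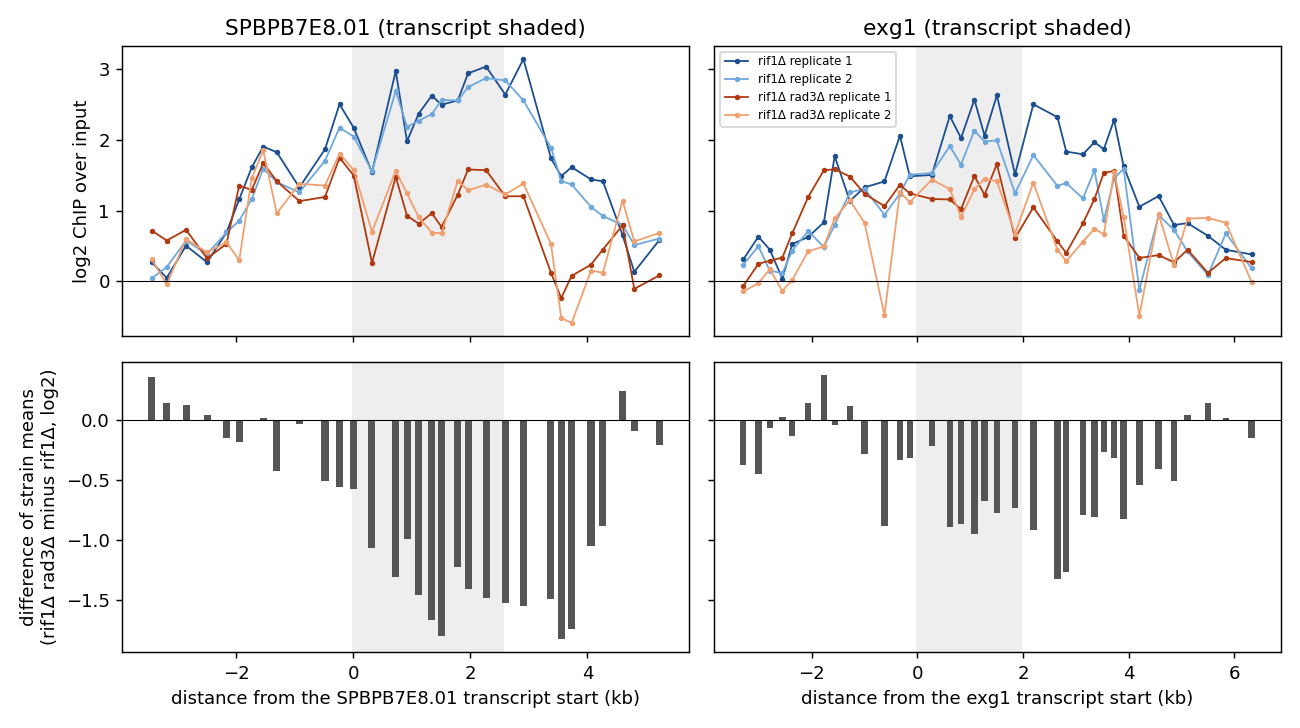
The 2 peaks aligned on the transcript starts of their genes (transcripts shaded), with log2 ChIP over input per probe and array above and the difference of strain means (rif1Δ rad3Δ minus rif1Δ) below, against distance from the start in kb. At SPBPB7E8.01 the bars are short before the start and reach -1.83 past it; at exg1 they are shorter and reach -1.33.

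Subtracting the upstream segment from the transcript on each array gave 0.86 and 1.03 in rif1Δ, and -0.18 and -0.06 in rif1Δ rad3Δ, for SPBPB7E8.01. The change of -1.07 was similar within the shared slide, at -1.04, and between the second replicates, at -1.09. When all arrays were set to one spread the change was -1.32, and the upstream bins then also differed, by -0.74 and -1.16. The small size of the upstream difference thus depended on the scale of the arrays, while transcript minus upstream was lower in rif1Δ rad3Δ under every setting run. Over 4134 coding genes, with 2 kb on each side, the same change had a median of -0.11 and was below 0 in 61.9%. SPBPB7E8.01 stood at -1.06 with those flanks, and 1.31% of genes were as low or lower. With flanks of 1 kb it stood at -0.93, and 2.77% of genes were as low or lower. It was chosen for its height and for its lower value in rif1Δ rad3Δ. That lower value enters the change, so these ranks are a description. Among the 29 genes at 2-fold or more in rif1Δ the median was -0.39 with 2-kb flanks, with 22 of 29 below 0. Of these 29, counting the gene itself, 3 were as low or lower with 2-kb flanks and 6 with 1-kb flanks.

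At exg1 the differences in the transcript and downstream were smaller than at SPBPB7E8.01, and the upstream difference was -0.29. Its 6 upstream probes averaged 1.53 and 1.18 in rif1Δ, and 1.33 and 0.79 in rif1Δ rad3Δ, and the strains overlapped. Its 7 transcript probes averaged 2.09 and 1.78, then 1.19 and 1.21, with no overlap and a difference of -0.73. The 12 downstream probes averaged 1.67 and 1.10, then 0.76 and 0.68, with a difference of -0.66. Transcript minus upstream was 0.56 and 0.60 in rif1Δ, and -0.14 and 0.42 in rif1Δ rad3Δ. The change of -0.44 depended on the replicate of rif1Δ rad3Δ, and was -0.16 without replicate 1 and -0.72 without replicate 2. With 2-kb flanks it was -0.54 and 13.9% of genes were as low or lower, and with 1-kb flanks it was -0.22 and 42.6% were. Among the same 29 high genes 11 were as low or lower with 2-kb flanks and 15 with 1-kb flanks, where exg1 was itself the median.

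**Figure D3:**
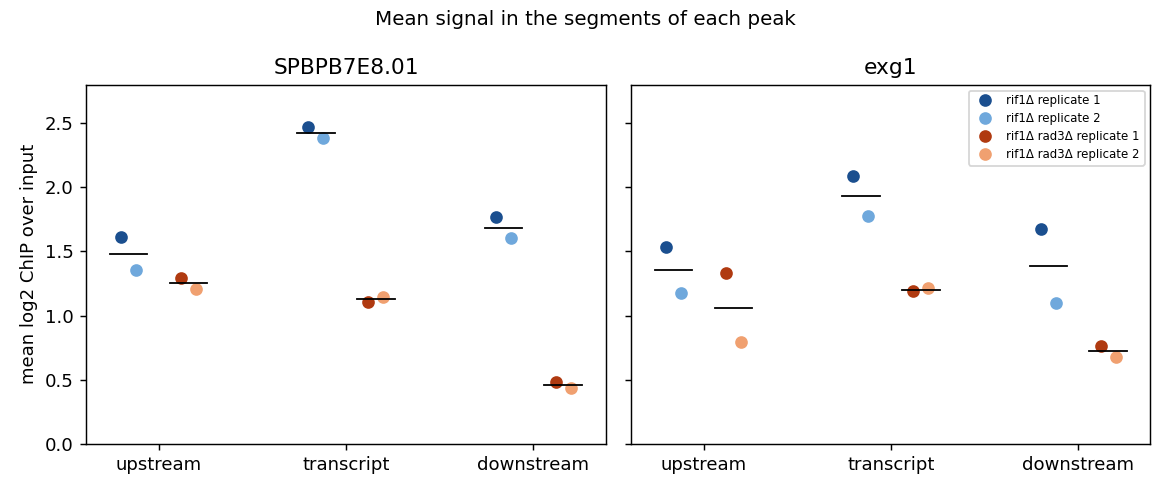
Mean log2 ChIP over input in the upstream, transcript and downstream segments of each peak, with 1 point per array and a bar for each strain mean (n = 2). The strains lie closest upstream, where those of exg1 overlap, and apart in the transcript and downstream segments of both genes.

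The summit, taken from a running mean of 3 probes, lay in different places in the strains at SPBPB7E8.01. It lay 2597 and 2269 bp after the transcript start on the rif1Δ arrays, close to the transcript end, and 236 bp before the start on both rif1Δ rad3Δ arrays. On replicate 1 of rif1Δ rad3Δ this was a near tie, 1.48 there against 1.45 at the place of the rif1Δ replicate 2 summit, and in 1-kb bins that array was highest at the end of the transcript, 1.40 against 1.36 in the bin before the start. At exg1 it lay 1272 bp after the start on both rif1Δ arrays and on rif1Δ rad3Δ replicate 2, and 1567 bp before the start on rif1Δ rad3Δ replicate 1. The run around the summit at 2-fold or more was 6215 and 5798 bp wide at SPBPB7E8.01 in rif1Δ, and 2269 and 2654 bp in rif1Δ rad3Δ. Those shorter runs ended at a dip within the gene and are not the full extent of the signal. Past the dip, probes from chrII:3496008 to 3497129 were again over 2-fold on both rif1Δ rad3Δ arrays. In all, 14 of 26 probes reached 2-fold on each of these arrays, against 24 and 22 in rif1Δ. At 1.5-fold the widths were closer, 6769 and 6970 bp against 5075 and 4857 bp. At exg1 the widths at 2-fold were 6342 and 5006 bp, then 3919 and 1993 bp. Probes lay a median of 268 bp apart on chromosome II, which sets the resolution of such positions.

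Probe by probe, 20 of 26 at SPBPB7E8.01 and 16 of 25 at exg1 were lower on both rif1Δ rad3Δ arrays than on both rif1Δ arrays, and 0 were higher. Differences of single probes ran from -1.83 to 0.24 and from -1.33 to 0.12. At SPBPB7E8.01 22 probes were over 2-fold on both rif1Δ arrays and 12 on both rif1Δ rad3Δ arrays. At exg1 these counts were 18 and 10. The peaks were chosen by values of these arrays and the same counts over all probes were not made, so nothing is read from them.

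The ChIP channel alone gave the same order of strains. Its log2 signal over the array median averaged 2.84 and 2.49 at SPBPB7E8.01 in rif1Δ, and 1.73 and 1.70 in rif1Δ rad3Δ. At exg1 it averaged 2.11 and 1.62, then 1.28 and 1.28. The input channel at SPBPB7E8.01 was 0.86 and 0.70, then 0.77 and 0.78, and at exg1 0.37 and 0.36, then 0.27 and 0.44, so in the input the strains overlapped at both peaks. Input was above its array median at both, and higher at SPBPB7E8.01. At exg1 this was not particular to the peak, since input was 0.28 to 0.46 in the stretch between and 0.37 to 0.42 on the right flank. Probe surroundings averaged 61.9% A+T at SPBPB7E8.01 and 64.6% at exg1, near the 63.9% over all placed probes.

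**Figure D4:**
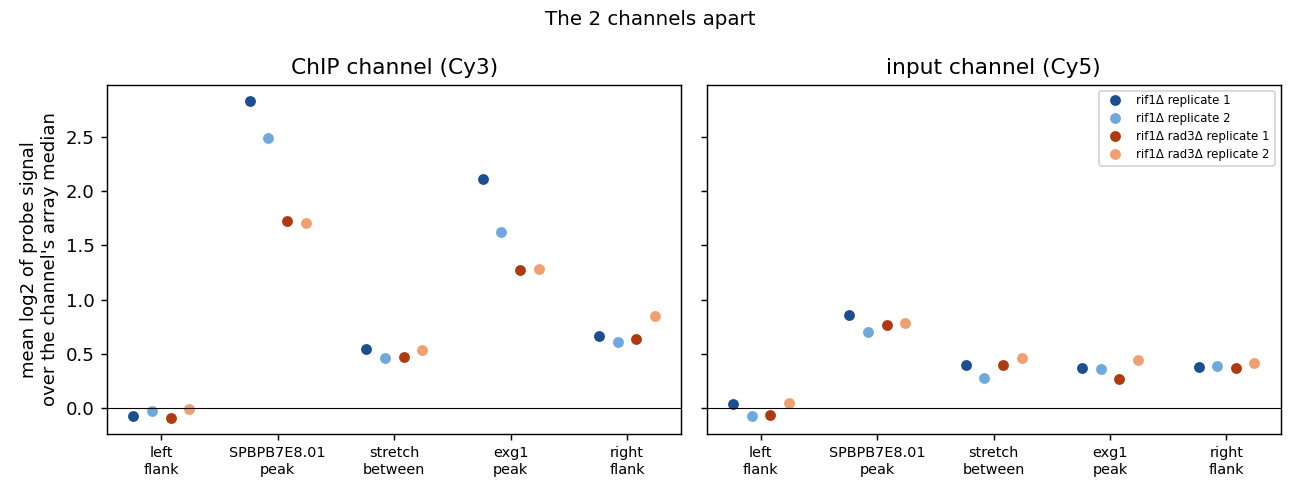
Mean log2 probe signal over the median of the same channel and array, for the ChIP channel (left) and the input channel (right), in the 5 regions, with 1 point per array. In the ChIP channel the rif1Δ arrays lie above the rif1Δ rad3Δ arrays at both peaks, and in the input channel the strains overlap there.

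Noncoding transcripts flank SPBPB7E8.01 on the opposite strand and split with the 2 sides of the peak. SPNCRNA.1606, which overlaps the upstream side at chrII:3491435-3494442, read 1.53 and 1.33 in rif1Δ, and 1.22 and 1.16 in rif1Δ rad3Δ. SPNCRNA.1607, past the end of the gene at chrII:3496926-3498873, read 1.64 and 1.43, then 0.38 and 0.32. Their values come from the probes of the peak itself and are not separate measurements. On the exg1 side the peak ran on over pmc4, which encodes a Mediator subunit, and pci2, which encodes a PCI-domain protein of the mRNA export machinery. pmc4 read 1.77 and 1.09, then 1.01 and 0.66. pci2 read 1.49 and 0.96, then 0.79 and 0.67. Probes in these overlapping, opposite genes cannot assign the signal to either.

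On average the stretch between the peaks stayed near the array median. Its mean was 0.16 and 0.23 in rif1Δ, and 0.08 and 0.09 in rif1Δ rad3Δ, a difference of -0.11, without overlap between the strains. Of its 14 bins, 1 was above 0 in rif1Δ and 2 in rif1Δ rad3Δ (limma, adjusted p below 0.05), against 4.32% and 24.5% of all bins. SPBPB7E8.02, which encodes a PSP1-family protein and begins inside the right edge of the SPBPB7E8.01 peak, read 0.36 and 0.51, then 0.26 and 0.53. The strains overlapped there, and no p-value is given since some of its probes lie in the peak. SPBC1105.01, annotated as an Rrp12-like ribosome biogenesis protein, read 0.03 and 0.12, then 0.05 and 0.10. cbp1, which encodes a CENP-B-type DNA-binding protein, read 0.30 and 0.17, then 0.24 and -0.11. Both overlapped between strains. lys4, for homocitrate synthase of lysine synthesis, read 0.28 and 0.49, then -0.07 and 0.04, without overlap. Its difference was -0.40 and missed the threshold (limma, adjusted p = 0.0620). mrpl16, for a protein of the mitochondrial ribosome, read -0.14 and -0.08, then -0.45 and -0.31, also without overlap (difference -0.27, limma adjusted p = 0.132).

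The flanks had means of -0.10 and 0.09, then -0.01 and -0.03 on the left, and 0.29 and 0.27, then 0.28 and 0.45 on the right. The strains overlapped in both. Outside the 2 peaks, 1 of 35 bins differed between strains (limma, adjusted p below 0.05), where 18.4% of all bins did, and 6 had an unadjusted p below 0.05. That bin, chrII:3521000-3521999 within emp70, which encodes an endosomal membrane protein, went the other way from the peaks. It read 0.05 and 0.11 in rif1Δ and 0.53 and 0.94 in rif1Δ rad3Δ, a difference of 0.66 (limma, adjusted p = 0.0388). The call was lost without either rif1Δ array (adjusted p = 0.105 and 0.0917) and without rif1Δ rad3Δ replicate 2 (0.166). It was also lost with normexp background correction (0.0655), with loess (difference 0.37, adjusted p = 0.128) and with arrays set to one spread (0.125). Over the whole of emp70 the values were 0.16 and 0.18, then 0.38 and 0.64 (difference 0.34, limma adjusted p = 0.102).

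Of the 17 protein-coding genes that touch the window 14 had the 2 probes needed for a test, and 9 of these touch neither peak. Limma called 0 of these 9 different between strains, where it called 22.7% of 4162 genes, and 2, lys4 and emp70, had an unadjusted p below 0.05. The genes not tested were tam12, hht3 and hhf3, with 1 probe each. The single probe of hht3, a histone H3 gene at the right end, read 0.56 and 1.33, then -0.27 and 0.48. That of hhf3, its histone H4 partner, read 1.25 and 1.20, then -0.02 and -0.30. The hhf3 probe was not among the 174 probes of the window, whose right end the gene crosses.

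exg1 was set beside a list of 25 genes for making and cutting cell wall glucans, which was chosen with results of these arrays known and is no independent evidence. Of these, 15 could be tested, and limma called 5 lower and 0 higher in rif1Δ rad3Δ, where 11.6% and 11.1% of all genes were lower and higher. The median difference of the list was -0.13, against -0.03 over all genes. exg1 itself is one of the 5, and its own p is not given since its rif1Δ values chose it. eng1, the endo-glucanase that dissolves the septum, was the highest of the list: its gene mean was 2.94 and 2.58 in rif1Δ, and 0.92 and 0.77 in rif1Δ rad3Δ (difference -1.92, limma adjusted p = 0.00899). adg3, a glucosidase-related gene of cell separation, read 0.45 and 0.18, then -0.58 and -1.05 (-1.13, adjusted p = 0.0144). The other 2 were below the array median in rif1Δ by their mean. mok12, an alpha-glucan synthase gene, read -0.13 and -0.29, then -0.69 and -0.99 (-0.62, adjusted p = 0.0276), a call that was lost with one spread (0.107) and without either rif1Δ array or rif1Δ rad3Δ replicate 2 (0.0524 to 0.0855). agn2, an alpha-glucanase gene, read 0.09 and -0.23, then -0.53 and -0.64 (-0.51, adjusted p = 0.0443), a call that was lost under 5 other settings (0.0656 to 0.161) and in 3 of 4 fits with an array left out (0.0519 to 0.176). Without rif1Δ replicate 1 the list held 2 calls, and without rif1Δ rad3Δ replicate 2 it held 3. The exo-glucanase paralogue exg3 read -0.41 and -0.29, then -0.77 and -0.64, and did not pass (adjusted p = 0.0722).

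**Figure D5:**
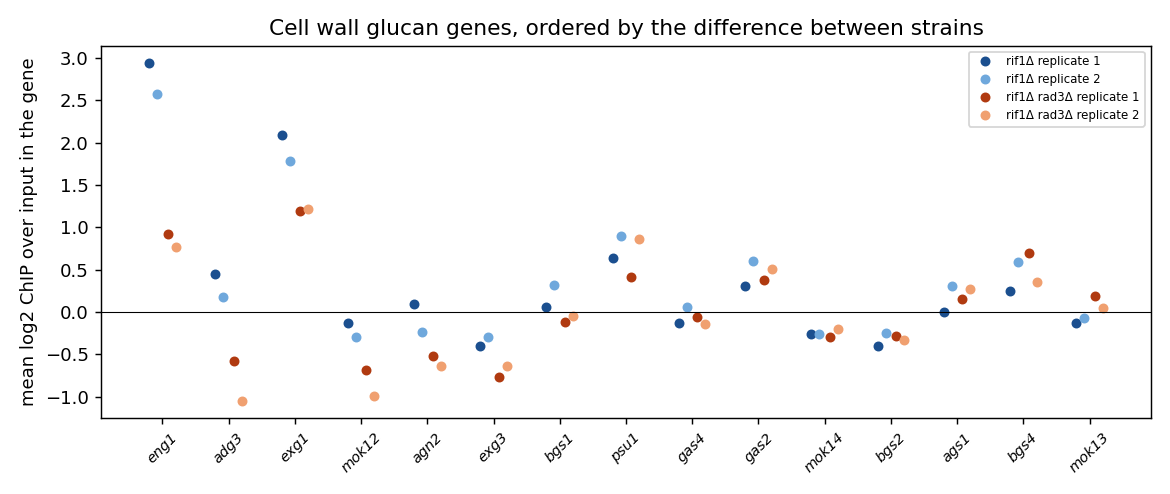
Mean log2 ChIP over input within each of the 15 cell wall glucan genes tested, with 1 point per array, ordered by the difference between strains. eng1 and exg1 stand above the other genes on both rif1Δ arrays.

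By distance over the 4 arrays, the bin most like the SPBPB7E8.01 summit among the 10267 bins outside the window where array and reference coordinates match lay in eng1 (distance 0.515 in log2 units), followed by bins in SPCPB1C11.03 (0.797) and mat1-Mc (1.10). The eng1 bin, chrI:999000-999999, read 2.84 and 2.46, then 1.14 and 0.99. The bins most like the exg1 summit lay in met17 (0.524), in a bin shared by eng1 and sod1 (0.561) and in slp1 (0.653). The met17 bin, chrII:466000-466999, read 1.86 and 1.72, then 1.30 and 0.96. Likeness was measured on the same 4 values, so it says nothing further about these bins.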

How the data were processed

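Per the labels, input was labelled with Cy5 and Rad52 ChIP with Cy3. The deposited intensity values used were processed signals of Agilent Feature Extraction 10.7.3.1, background-subtracted and dye-normalised per the file headers. The deposited log10 ratio (Cy5 over Cy3) served to check direction, and the authors' value table, a linear ratio of Cy3 over Cy5, as an alternative. The labels' extraction text describes RNA. From the signals log2 of Cy3 over Cy5 was computed per probe and centred on the median of nuclear probes. Outlier probes (97) and control spots (2513) were left out, leaving 42548. Probes were averaged in 1-kb bins and genes with at least 2 probes and fitted on all 4 arrays with limma 3.58.1 in R 4.3.3, with Benjamini-Hochberg adjustment over the whole array at 0.05; the fit was tested on simulated data. An exact permutation test of 2 against 2 cannot go below p = 0.333. Coordinates are those of the array header (Feb2002 build). On chromosome II input brightness followed the A+T content of ASM294v3 best at an offset of 0 (r = -0.288), so its annotation was used. Named were the genes of the window, called glucan genes (at most 6) and the 3 bins nearest each summit; exg3 was added after its values were seen. Members, lists and tests were chosen with earlier results of these data known.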

Additional observations from a re-analysis of the deposited data

Results flagged for a closer look

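Outside the peaks 4 bins stood apart because the strains differed or lay on opposite sides of the array median on all arrays. In chrII:3521000-3521999, in emp70, the difference was 0.66 and passed (limma, adjusted p = 0.0388), but not with normexp, loess or one spread (0.0655 to 0.128) or in 3 of 4 fits with an array left out (0.0917 to 0.166). In the other 3 all rif1Δ arrays had one sign and all rif1Δ rad3Δ arrays the other, but the difference did not pass. They were chrII:3483000-3483999 in zfs1, which encodes an mRNA-binding zinc finger protein (difference -0.56, limma adjusted p = 0.0633), chrII:3490000-3490999 (0.23, adjusted p = 0.363) and chrII:3507000-3507999, where lys4 meets mrpl16 (-0.49, adjusted p = 0.0609).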

How the results depend on the processing

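The difference at both peaks was negative under every alternative run. At SPBPB7E8.01 (-0.95) it was -1.20 with normexp background correction, -1.15 with loess, -0.67 with the median of probes and -1.68 with arrays set to one spread; at exg1 (-0.59) it was -0.84 with normexp and -1.22 with one spread. The stretch between (-0.11) gave -0.22 with normexp, -0.16 with loess and -0.18 with one spread. The right flank (0.08) turned to -0.058 with normexp, -0.067 with one spread and -0.012 within the slide, and the left flank (-0.02) to 0.085 within the slide. Leaving out 1 array gave -1.03 to -0.87 at SPBPB7E8.01, -0.82 to -0.37 at exg1, -0.14 to -0.07 between, -0.11 to 0.08 on the left and 0.00 to 0.17 on the right. Transcript minus upstream at SPBPB7E8.01 was -1.18 with loess, -1.32 with one spread, -0.93 with 1 kb and -1.15 to -0.98 with 1 array left out; these segments and the peak widths were chosen after seeing the data. Bins called outside the peaks, 1 (in emp70), were 2 with normexp and with loess, which called the bins in zfs1 and at lys4 and mrpl16 and not that in emp70, 2 with the median of probes (emp70 and zfs1), 0 with one spread, and 0 to 1 with 1 array left out. The replicate 1 arrays of both strains, on the shared slide, deviated together from their strain means (r = 0.329 over bins). The same r follows for the replicate 2 arrays by construction, since each strain has 2 arrays. Same-numbered arrays are not known to be paired. With the replicate block bins outside the peaks were 6, and genes outside the peaks were 2 in place of 0, lys4 and emp70 (limma adjusted p = 0.0217 and 0.0471). Called glucan genes, 5, were 3 with one spread and 2 to 4 with 1 array left out. Uncalled genes changed sign: SPBC1105.01 to 0.018 (A+T trend removed) and 0.0061 (median of probes), with -0.049 to 0.048 when 1 array was left out, rav1 to -0.032 (normexp) and -0.048 (one spread), and ubc15 to -0.14, -0.027 and -0.12 (normexp, A+T trend removed, one spread). With 1 array left out cbp1 ran from -0.35 to 0.0033 and zfs1 from -0.23 to 0.016. The cause of these moves was not tested. With 1 array left out, the lone array is assumed to vary like the other strain. The slide as a random block could not be fitted with these 3 slides. With 2 arrays a strain, small differences in the stretch and flanks could not be resolved.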
